A study of Mus musculus with 4 samples.

Results

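Vcam1, Icam1, Vwf and Cd34 are 4 genes of the vessel wall among the 383 genes counted by MERFISH, an imaging method that reads single RNA molecules in place, in mouse brain sections that hold both striata. They were chosen by name and not by a rule on measured values, though with earlier results of these data known. All 4 were detected in every section. The 4 coronal sections were cut from fresh-frozen brains, 2 at 2 months (Young 1 and Young 2) and 2 at 18 months (Aged 1 and Aged 2). The study's mice were wild-type C57BL/6NTac of both sexes, but no sex is given for these 4 sections. The sections carry no other treatment. The study's methods describe its replicates as biological, though the labels name no animal for a section. All p-values rest on these 4 sections. Those of edgeR, used for most comparisons, share the spread between sections over all genes tested. They do not measure the spread of a single gene alone.

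The endothelium lets white blood cells leave the blood by stages, in which cells are slowed, stopped and passed through the wall. Vcam1 (vascular cell adhesion molecule 1) and Icam1 (intercellular adhesion molecule 1) are membrane proteins that bind integrins of white blood cells, and both are induced by inflammatory signals. Vwf encodes von Willebrand factor, a blood protein stored in endothelial cells that tethers platelets to a damaged wall. Cd34 encodes a sialomucin of the endothelial surface and of blood-forming progenitors, which can be decorated to bind selectins. In the GENCODE annotation of GRCm38, Vcam1 lies on chr3:116109949-116129688 on the minus strand, and the others on the plus strand at chr9:21015985-21028817 (Icam1), chr6:125546774-125686679 (Vwf) and chr1:194938819-194961279 (Cd34). All 4 are protein-coding genes.

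Levels below are transcripts of a gene per 10000 transcripts of the panel, from sums over all cells of one class in one section. Probes differ between genes, so levels are compared between cells and sections but not between genes. Classes were rebuilt by clustering without the 4 genes and were named from marker lists, hence names such as endothelial-like. After filtering, 281824 cells were left, with a median of 215 to 400 transcripts per cell in a section, lowest in Aged 1. No cell identifier was shared between sections. Cells in which 3 or more markers of their own class and 3 or more markers of another class were detected were called mixed and left out. Endothelial, smooth muscle, pericyte and fibroblast markers counted together as the vascular class, so mixing among these was not screened. Perivascular macrophage-like cells, neuroblast-like cells and an unnamed cluster led by Rassf9 were not screened at all. Mixed cells made up 64.6% to 74.0% of endothelial-like, 61.6% to 73.1% of astrocyte-like and 67.5% to 76.6% of microglia-like cells. This left 6394 endothelial-like, 7698 astrocyte-like and 3136 microglia-like cells. In all 3 classes the share of mixed cells was highest in Young 1, the deepest section, and lowest in Aged 1, the shallowest. The rule thus bore unequally on the sections and left shallower cells. Endothelial-like cells had a median of 79 transcripts without mixed cells and 193 with them. The summed level of 14 endothelial markers was 1878 to 1965 in endothelial-like cells, 152 to 175 in astrocyte-like cells and 24.5 to 36.4 in microglia-like cells. Cldn5, a tight junction gene of endothelial cells, was at 41.1 to 59.4 in endothelial-like cells and at no more than 0.19 in astrocyte-like cells. The 14 markers, Cldn5 among them, also serve the rule on mixed cells. Their low levels outside endothelial-like cells are thus set in part by that rule. As a measure of the assay's floor, the highest of 7 genes with little known expression in brain reached 1.41 in endothelial-like, 1.08 in astrocyte-like and 1.34 in microglia-like cells.

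The 4 genes had 4 different distributions over the cell classes. Vcam1 was higher in astrocyte-like than in endothelial-like cells, Icam1 was highest in microglia-like cells among these 3 classes, and Vwf and Cd34 were highest in endothelial-like cells. Between endothelial-like and astrocyte-like cells all 4 differed in edgeR's test, beside 78.9% of all 383 genes (39.2% higher and 39.7% lower in endothelial-like cells). Between endothelial-like and microglia-like cells all 4 differed too, beside 77.8% of the genes (33.4% higher and 44.4% lower). The panel was chosen to tell cell types apart, so the 4 genes did not stand out by differing, and the account below is of direction and size.

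**Figure D1:**
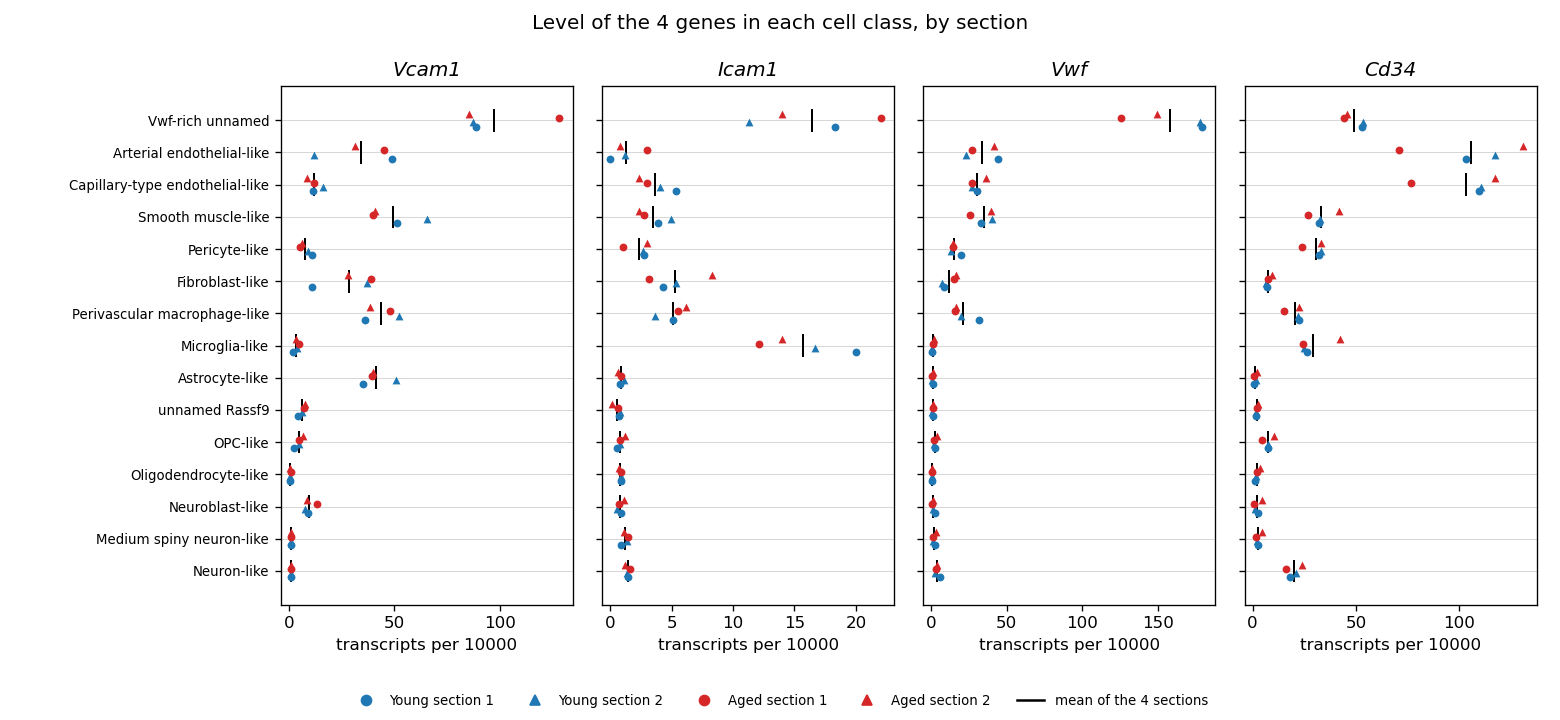
Level of each gene (transcripts per 10000, linear axis that differs between panels) in 15 cell classes, with a point per section and a bar at the mean of the 4 sections. Vcam1 has points at 35.1 to 50.9 in astrocyte-like cells and at 8.74 to 16.3 in capillary-type endothelial-like cells, Icam1 has high points in the unnamed Vwf-rich cluster and microglia-like cells, and Cd34 is highest in both endothelial-like classes. Unnamed Rassf9 is a cluster led by that gene. The ependymal list fitted it best, with 3 of 3 markers raised. None of these markers was among its 10 leading genes, so it was given no name.

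For Vcam1, endothelial-like cells held 13.5 and 16.1 transcripts per 10000 in Young 1 and 2, and 14.2 and 10.4 in Aged 1 and 2. Astrocyte-like cells held 35.1, 50.9, 39.4 and 39.7 in the same order. Every section was higher in astrocyte-like cells and the 2 ranges did not overlap. The level was 3.05-fold lower in endothelial-like cells (log2 difference -1.61, SE 0.14, edgeR adjusted p = 1.7e-09). Microglia-like cells held 2.09, 3.62, 4.56 and 3.58, and Vcam1 was 3.95-fold higher in endothelial-like cells than in these (log2 1.98, SE 0.19, adjusted p = 1.0e-08). Vcam1 was also high in cells of the wall around the endothelium. It ranged from 40 to 65.3 in smooth muscle-like cells, from 36.1 to 52.1 in perivascular macrophage-like cells and from 11 to 38.8 in fibroblast-like cells, and those ranges overlapped with that of astrocyte-like cells. Perivascular macrophage-like cells, unlike the others here, were not screened for mixed cells. Medium spiny neuron-like cells, at 1.06 to 1.21, and oligodendrocyte-like cells, at 0.62 to 0.81, had little. Of all 55780 Vcam1 transcripts in kept cells, mixed cells included, a mean of 32.7% per section lay in astrocyte-like cells and 7.41% in capillary-type endothelial-like cells. These classes held 4981008 and 5151212 of the 114977152 transcripts of all genes.

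Icam1 was sparse. Endothelial-like cells held 5.03, 3.96, 2.98 and 2.22 in Young 1, Young 2, Aged 1 and Aged 2, from 223 transcripts in all. Microglia-like cells held 20, 16.7, 12.1 and 14, above the endothelial-like cells in all 4 sections. The level was 4.49-fold lower in endothelial-like than in microglia-like cells (log2 -2.17, SE 0.19, adjusted p = 2.9e-09) and 4.05-fold higher than in astrocyte-like cells (log2 2.02, SE 0.23, adjusted p = 1.5e-07). In astrocyte-like cells Icam1 was at 0.60 to 1.13, above the highest floor gene of the class (0.49 to 1.08) in 3 of 4 sections. Neuron-like cells held 1.49, 1.34, 1.65 and 1.22, beside a highest floor gene at 2.06, 1.27, 0.87 and 0.99, so Icam1 was below it in Young 1 and above it in the other sections. With mixed cells included, neuron-like cells held a mean of 37.3% of all Icam1 transcripts of a section. The mean was 12.7% in microglia-like and 7.25% in capillary-type endothelial-like cells. Neuron-like cells made up 88865 of the 281824 cells and held 48626151 of the 114977152 transcripts of all genes. Microglia-like cells held 3103757 and capillary-type endothelial-like cells 5151212 of these.

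For Vwf, endothelial-like cells held 31.3, 26.7, 27.1 and 36.4 in Young 1, Young 2, Aged 1 and Aged 2. Astrocyte-like cells held 1.27, 0.32, 0.52 and 1.04, and microglia-like cells 0.45, 0.28, 1.23 and 1.53. In each class this was above the highest floor gene in 2 of 4 sections. Vwf was 39.8-fold higher in endothelial-like than in astrocyte-like cells (log2 5.32, SE 0.25, adjusted p = 8.8e-14) and 36.6-fold higher than in microglia-like cells (log2 5.19, SE 0.29, adjusted p = 2.1e-12). Smooth muscle-like cells held 25.7 to 40.4, a range that overlapped with those of arterial (23 to 44.2) and capillary-type endothelial-like cells (26.9 to 36.0). Fibroblast-like cells, at 6.75 to 16, and perivascular macrophage-like cells, at 15.7 to 31.4 and not screened for mixed cells, held Vwf as well. Both classes lie at vessels, and the part of transcripts assigned from neighbouring endothelium was not tested. Neuron-like cells held 2.36 to 5.45, above their highest floor gene, which reached 2.06. With mixed cells included, a mean of 40.7% of Vwf transcripts lay in neuron-like cells. The mean was 16.3% in capillary-type endothelial-like and 11.6% in medium spiny neuron-like cells.

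For Cd34, endothelial-like cells held 109, 111, 76.1 and 118 in Young 1, Young 2, Aged 1 and Aged 2. Astrocyte-like cells held 0.70, 1.40, 0.73 and 2.02, the lowest mean of the 15 classes. Cd34 was 86.0-fold higher in endothelial-like cells (log2 6.43, SE 0.19, adjusted p = 1.2e-16). Microglia-like cells held 26.3, 24.6, 24.2 and 42.3, and the endothelial-like level was 3.59-fold higher than this (log2 1.84, SE 0.15, adjusted p = 6.4e-10). Neuron-like cells held 18.2, 20.9, 16.3 and 23.8, above every section of medium spiny neuron-like cells, at 1.74 to 4.4. With mixed cells included, a mean of 56.7% of the 181100 Cd34 transcripts lay in neuron-like cells and 17.6% in capillary-type endothelial-like cells. Neuron-like cells held 48626151 and capillary-type endothelial-like cells 5151212 of the 114977152 transcripts of all genes.

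The Cd34 of neuron-like and microglia-like cells varied with the distance to endothelium in different ways, which is given as a description. Neuron-like cells with an endothelial-like cell centre within 15 µm held a mean of 21.1 over the 4 sections, those at 15 to 40 µm held 21.2 and those beyond 40 µm held 18.4, with Cldn5 at 0.56, 0.74 and 0.72. Their Cd34 was lowest beyond 40 µm in 4 of 4 sections. In microglia-like cells the means were 22.6, 29.2 and 30.5, lowest nearest the endothelium in 4 of 4 sections, with Cldn5 at 0.75, 0.93 and 0.63. Cldn5 serves the rule on mixed cells, so it cannot measure the part of neighbouring endothelium in these levels, which was not tested.

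The panel genes whose mean log2 level over the 13 named classes was most like that of each gene were found by Pearson's r, given as a description over points that share the same 4 sections. For Vcam1 they were Timp3, a secreted inhibitor of matrix proteases (r = 0.95), Id3 (0.92) and the MHC class I gene H2-D1 (0.89). For Icam1 they were Kctd12, Tgfb1 and Casp8 (0.83 each). For Vwf they were Podxl, an endothelial surface sialomucin (0.97), the flow-responsive factor Klf2 (0.97) and Rasip1 (0.95). For Cd34 they were Pdgfb, the endothelial growth factor for mural cells (0.97), Ly6e (0.96) and Cldn5 (0.86). Among the 4 genes, Vwf and Cd34 were most alike (0.79) and Vcam1 and Icam1 least (0.19).

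A small vascular cluster of 182 cells that were not mixed (40 to 50 per section) held the highest mean Vcam1, Icam1 and Vwf of all classes. Its leading gene was Aldh1a2, a retinoic acid enzyme known from the fibroblasts of the meninges, and Vwf was among its 10 leading genes. All 14 endothelial markers were raised in it, with a sum of 1168 to 1296, but none of these markers was among those 10, so it was given no cell type name and was kept out of the endothelial-like class. As the clustering used the other genes of these same cells, and the resolution of this sub-clustering was chosen after values were seen, its levels are given without a test. Vwf was at 179, 178, 125 and 149 in Young 1, Young 2, Aged 1 and Aged 2, above every other class in every section. Vcam1 was at 88.7, 87.4, 128 and 85.2, also above every other class, and Icam1 at 18.3, 11.3, 22 and 14, which overlapped with microglia-like cells. Cd34 was at 44.0 to 53.5, below the capillary-type endothelial-like cells in all sections. These cells lay near fibroblast-like cells, which are known from the meninges and the space around large vessels: 69.8% to 78.0% had a fibroblast-like cell within 50 µm, against 5.36% to 10.5% of arterial and 7.42% to 8.13% of capillary-type endothelial-like cells. Of them, 2% to 25.6% had a smooth muscle-like cell within 15 µm and 16% to 27.5% lay in the striatum. Their sums of astrocyte markers, 513 to 747, and of fibroblast markers, 65.8 to 127, were above those of endothelial-like cells (165 to 212 and 17.6 to 21.7), and the part of neighbouring cells in their levels was not tested.

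To compare vessel sizes, endothelial-like cells were split by their distance to smooth muscle-like cells, which wrap arteries and arterioles. Cells with a smooth muscle-like centre within 15 µm stood for large vessels (29, 21, 33 and 21 cells in Young 1, Young 2, Aged 1 and Aged 2), and those with none within 50 µm for small vessels (1269 to 1631 cells per section). Large veins carry little smooth muscle and can fall on either side. The markers went with the split: all 5 arterial markers were higher in large vessels, Bmx by 8.85-fold, and all 4 capillary markers were lower, the lactate transporter gene Slc16a1 by 4.97-fold. Bmx and Tm4sf1 were also among the 10 leading genes of the larger smooth muscle-like cluster, so they are no independent check of the split. Of 271 genes tested, 28.8% differed, 28 higher (10.3%) and 50 lower (18.5%), around a median log2 difference of -0.27. Without TMM scaling the split was 39 higher and 33 lower around a median of -0.05.

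Vcam1 and Vwf were higher in large vessels. Vcam1 was at 78.7, 68.6, 145 and 81.3 in large vessels of Young 1, Young 2, Aged 1 and Aged 2, from 27, 14, 46 and 14 transcripts. In small vessels it was at 11.6, 14.1, 10.7 and 8.58. The ranges did not overlap, and the level was 7.06-fold higher in large vessels (log2 2.82, SE 0.27, adjusted p = 9.1e-22, edgeR with section as a block). The call held in every alternative, with log2 differences of 1.32 to 3.15. The lowest value came from another split, endothelial-like cells with at least 2 arterial markers against those with none (adjusted p = 0.016). By that split Vcam1 was higher with 2 or more arterial markers in Young 1, Aged 1 and Aged 2 (38.1 against 11.2, 30.6 against 10.5 and 22.5 against 7.45) and lower in Young 2 (9.14 against 13.6).

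Vwf was at 87.4, 73.5, 78.9 and 75.5 in large and at 28.0, 25, 24.4 and 33.6 in small vessels, again without overlap, and 2.45-fold higher (log2 1.29, SE 0.23, adjusted p = 2.2e-07). By the split on arterial markers Vwf did not pass (log2 0.27, SE 0.19, adjusted p = 0.30), with 32.9 in cells with 2 or more arterial markers and 29.3 in those with none. The excess of Vwf was thus seen by closeness to smooth muscle and was not detected by arterial identity.

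**Figure D2:**
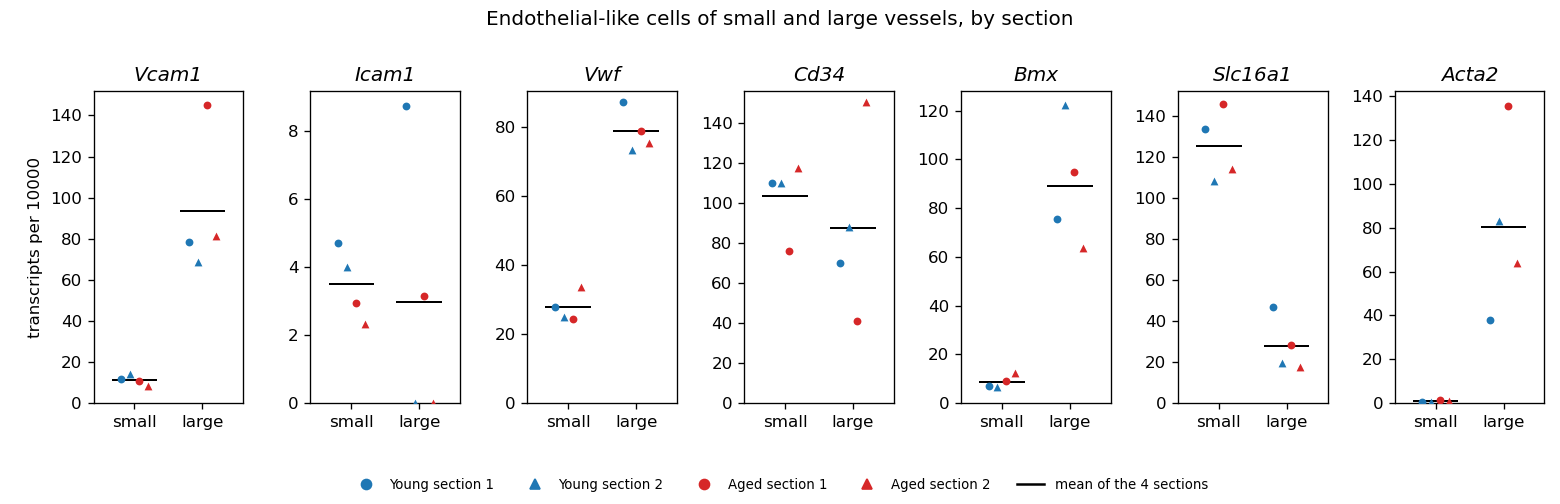
Level (transcripts per 10000, axes from 0 that differ between panels) in endothelial-like cells of small and large vessels, a point per section and a bar at the mean of the 4 sections. Vcam1 and Vwf points of large vessels lie above all small-vessel points, those of Cd34 and Icam1 overlap, and Bmx (arterial), Slc16a1 (capillary) and Acta2 (smooth muscle) are markers of the split.

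Cd34 was at 69.9, 88.2, 41.0 and 151 in large and at 110, 110, 76.0 and 118 in small vessels. Large vessels were lower in 3 of the 4 sections, Aged 2 was the exception, and the ranges overlapped. The log2 difference was -0.61 (SE 0.18, adjusted p = 0.0044), and the call was lost without TMM scaling (-0.35, adjusted p = 0.16), with DESeq2, limma or cell volume as the scale, without Young 1 (-0.46) and without Aged 1 (-0.44). Icam1 had 3, 0, 1 and 0 transcripts in large vessels, which gave no detectable difference (log2 -0.22, interval -1.87 to 1.42, adjusted p = 0.91).

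The levels varied with distance from smooth muscle, which is given as a description. Mean Vcam1 was 99.8 within 10 µm of a smooth muscle-like centre, 82.5 at 10 to 15 µm, 34.2 at 15 to 25 µm and 31.9 at 25 to 50 µm, and then 15.1 at 50 to 100 µm and 10.5 beyond. Vwf was at 70.6, 89.6, 105, 68.2, 31.5 and 27.1 over the same distances, so its highest mean was not in the nearest cells. Bins up to 25 µm held 8 to 21 cells per section and their sections spread widely, with Vcam1 from 22.6 to 197 at 10 to 15 µm. No Icam1 transcript was seen in the 64 cells within 10 µm.

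**Figure D3:**
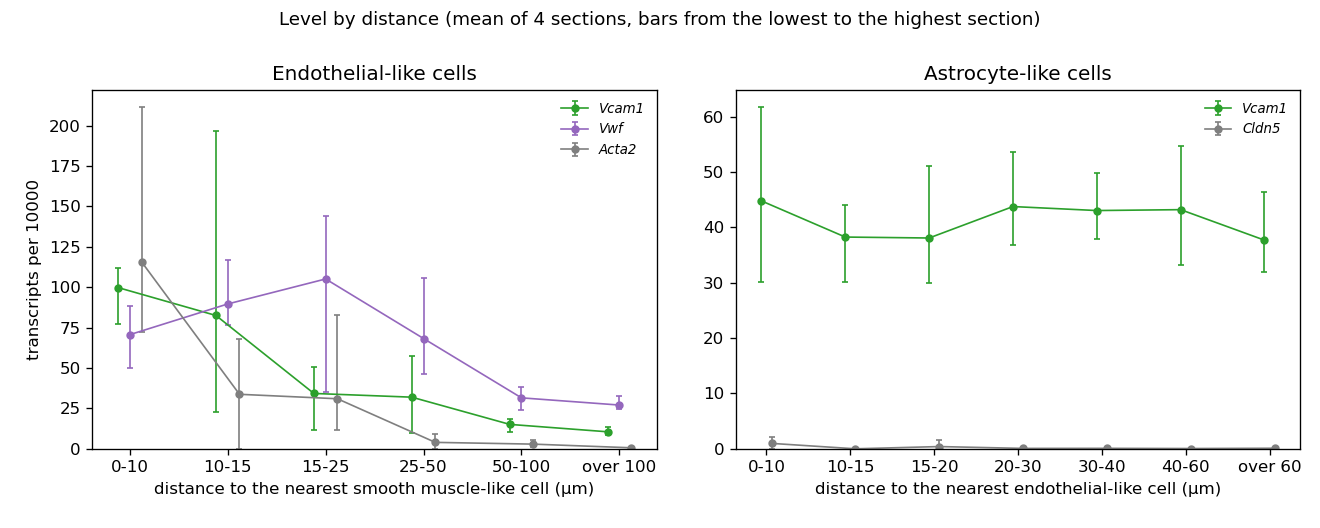
Left, Vcam1, Vwf and the smooth muscle gene Acta2 in endothelial-like cells by distance to the nearest smooth muscle-like cell centre, and right, Vcam1 and Cldn5 in astrocyte-like cells by distance to the nearest endothelial-like centre (transcripts per 10000, means of 4 sections, bars from the lowest to the highest section). Vcam1 in endothelial-like cells falls from a mean of 99.8 to 10.5 along the left axis, while in astrocyte-like cells it stays between means of 37.7 and 44.8.

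Some markers of neighbouring wall cells were higher in large-vessel cells too. The rule on mixed cells did not remove endothelial-like cells with smooth muscle or fibroblast markers, which it counts as vascular. The sum of 5 smooth muscle markers was 210 to 331 in large against 68.9 to 90.7 in small vessels, and 1711 to 2106 in smooth muscle-like cells themselves. Of these markers 3 of 5 were called higher, Acta2 by 66.6-fold (37.9, 83.3, 136 and 63.8 against no more than 1.28), while Cnn2 and Tpm4 did not pass. None of 3 pericyte markers was called. The sum of 4 fibroblast markers was 75.8 to 215 against 16 to 18.5, and most of it was Mgp (58.3, 73.5, 199 and 87.1). Mgp was also among the 10 leading genes of the smooth muscle-like and pericyte-like clusters. It thus does not mark fibroblast-like cells alone. Of the 3 that could be tested, Mgp and Aldh1a2 were called higher and Igfbp5 did not pass (mean 6.71 against 10.9, log2 -0.91, adjusted p = 0.25), while Mmp2 was at 0 in large vessels. A fibroblast-like cell lay within 50 µm of 24% of large-vessel and 6.5% of small-vessel cells. Vcam1 in large-vessel endothelial-like cells was above the level of smooth muscle-like cells in all 4 sections (78.7 against 51.1, 68.6 against 65.3, 145 against 40 and 81.3 against 40.9), as was Vwf, although the Young 2 value of Vcam1 rests on 14 transcripts. Without cells near fibroblast-like cells, the 2 calls for Vcam1 and Vwf held. The part of neighbouring cells in the large-vessel levels was not tested.

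Other genes of inflammation and of the endothelial surface were read against the 10.3% of all genes called higher and 18.5% called lower. Of 10 inflammatory signals 6 could be tested and 1 was higher in large vessels, the prostaglandin synthase gene Ptgs2 (8.74, 24.5, 15.8 and 11.6 against 2.12 to 4.28; log2 1.99, SE 0.56, adjusted p = 0.0023). Nfkbiz missed the threshold (log2 1.21, adjusted p = 0.080). Of 8 chemokines 1 could be tested, Cxcl12, which was lower at 34.8 to 73.5 against 133 to 200 (log2 -1.93, SE 0.20, adjusted p = 1.2e-19). Of 8 partners of adhesion, haemostasis and tone, 6 could be tested and 1 was higher, Podxl, at 250 to 323 against 126 to 168 (log2 0.76, SE 0.13, adjusted p = 2.2e-07), while F3 and Edn1, for tissue factor and endothelin, did not pass. The median log2 differences were 0.24 for inflammatory signals and 0.34 for the partners, beside -0.27 for all genes.

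With age, no change of the 4 genes was detected in endothelial-like cells. No gene of 338 tested was called (0%) by edgeR, DESeq2 or limma, and 33 had an unadjusted p under 0.05, of which 13 were higher and 20 lower at 18 months. The values per section are those given above for each gene. For Vcam1 the young and aged ranges overlapped, with a log2 change of -0.34 from 2 to 18 months (SE 0.24, interval -0.81 to 0.14, adjusted p = 0.61). For Vwf they overlapped too (log2 0.08, SE 0.23, interval -0.37 to 0.53, adjusted p = 0.92).

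Endothelial-like Icam1 was at 5.03 and 3.96 in young against 2.98 and 2.22 in aged sections, a separation that was not counted over all genes. Its log2 change was -0.85 (SE 0.31, interval -1.45 to -0.25, unadjusted p = 0.016), and it did not pass over all genes (adjusted p = 0.33, and 0.090 to 0.87 over the alternatives, all with a lower level at 18 months). With each cell thinned to 100 transcripts, 3.64% and 3.36% of young and 2.85% and 1.31% of aged endothelial-like cells had an Icam1 transcript, where p = 0.33 is the smallest that an exact permutation test over 2 and 2 sections can give. Thinning left out 764, 958, 1202 and 1025 shallower cells of the 4 sections. Unthinned shares were 4.14%, 3.30%, 2.15% and 2.02%. Medium spiny neuron-like cells, taken as background (median 231 transcripts per cell against 79 in endothelial-like cells), had thinned shares of 0.92% to 1.51%, so Aged 2 lay within the background.

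Thinned shares for Vcam1 were 7.99%, 8.10%, 9.28% and 6.69% against a background of 1.04% to 1.28%. For Vwf they were 20.1%, 17.0%, 20% and 25.8% against 1.04% to 2.89% (unthinned 14.8% to 22.3%). For Cd34 they were 64.7%, 65.4%, 51.1% and 66.1% against 1.85% to 4.39% (unthinned 39.2% to 59.2%). Aged and young thinned shares overlapped for all 3 genes (exact permutation p from 0.667 to 1), as did the unthinned shares of Vwf and Cd34. Unthinned shares for Vcam1 did not overlap, with 8.57% and 8.92% in young against 6.69% and 5.64% in aged sections (exact permutation p = 0.33, again the smallest possible). This separation was not counted over all genes either.

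Cd34 differed more between the 2 aged sections than between ages. The endothelial-like level was 76.1 in Aged 1 and 118 in Aged 2, on either side of the young sections at 109 and 111, and the log2 change was -0.23 (SE 0.22, interval -0.66 to 0.20, adjusted p = 0.73). Without Aged 1 it was 0.11. The same order held across cell types, since Aged 1 had the lowest Cd34 of the 4 sections in 11 of 15 classes and Aged 2 the highest in 13. For Vwf, Young 1 was highest in 9 classes and Young 2 lowest in 9. The part of depth in these orders was not tested. Aged 1 was also the shallowest section, with the lowest Cldn5 (41.1) and the highest sums of astrocyte (212) and neuron markers (126) in endothelial-like cells.

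**Figure D4:**
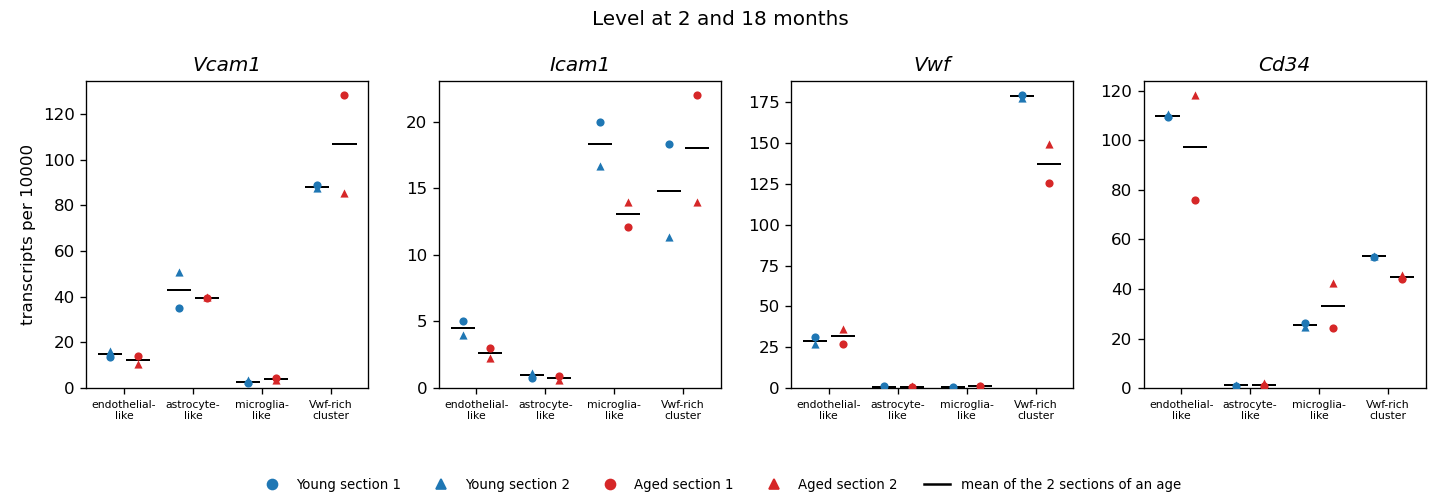
Level at 2 months (blue) and 18 months (red) in 4 cell classes, a point per section, axes in transcripts per 10000 from 0 and bars at the mean of the 2 sections of an age. Icam1 in endothelial-like and microglia-like cells has both aged points under both young points, though neither change passed over all genes. Cd34 in endothelial-like cells has its aged points on either side of the young ones.

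Astrocyte-like and microglia-like cells were tested in the same way. In astrocyte-like cells 1.25% of 321 genes were called (Cd38 and Alas2 lower, Tm4sf1 and C4b higher, named after their values were seen) and none of the 4 genes. The log2 change of Vcam1 there was -0.12 (SE 0.18, interval -0.48 to 0.24, adjusted p = 0.88). In microglia-like cells 0.697% of 287 genes were called (Calb1 and Gfap higher, named likewise), none of them among the 3 genes tested. Sums of astrocyte markers in these cells were 93.2, 110, 160 and 136 in Young 1, Young 2, Aged 1 and Aged 2. Sums of neuron markers were 157, 178, 361 and 204, and the part of neighbouring cells in the 2 calls was not tested. Icam1 was lower in both aged microglia-like sections (12.1 and 14 against 20 and 16.7), a separation that was not counted over all genes. Its log2 change was -0.64 (SE 0.31, edgeR unadjusted p = 0.048, adjusted p = 0.40). Cd34 had a log2 change of 0.25 (SE 0.29, adjusted p = 0.73) and Vcam1 of 0.34 (SE 0.46, adjusted p = 0.76), and Vwf was too low to be tested. Of the 10 inflammatory signals, 8 chemokines and 8 partners, none was called with age in endothelial-like cells, with 8, 7 and 7 of them tested.

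Whether the change with age differed between large and small vessels was tested by the interaction of age and vessel size. Large-vessel Vcam1 was higher in both aged sections (145 and 81.3) than in both young sections (78.7 and 68.6). The small-vessel level was lower in both aged sections (10.7 and 8.58 against 11.6 and 14.1). These separations were not counted over all genes. The large-vessel levels of 81.3 and 78.7 rest on 14 and 27 transcripts. The difference of the log2 changes was 1.15 (SE 0.48, unadjusted p = 0.016, adjusted p = 0.62), with 0.325% of 308 genes called. Without Aged 2 it was 1.49 and passed (adjusted p = 0.0033), so that call rested on Aged 1 alone, with 46 transcripts in 33 cells, and on the assumption that a lone aged section varies like the young ones. For Vwf it was -0.0037 and for Cd34 0.45, and neither passed.

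Astrocyte-like Vcam1 was measured against its distance to endothelium, since transcripts of a vessel can be assigned to the cells that touch it. In cells with an endothelial-like centre within 15 µm against those with none within 40 µm, the log2 difference of Vcam1 was 0.03 (SE 0.12, interval -0.21 to 0.27, adjusted p = 0.92), where 6.17% of 227 genes were called, 2.64% higher and 3.52% lower near vessels. Over 7 bins of distance the means ran from 37.7 to 44.8 with no order, and Cldn5 was at 0.98 in the nearest bin and at no more than 0.40 in the others. The rule on mixed cells uses Cldn5, so its low level here is set in part by that rule. How much vessel RNA was assigned to astrocyte-like cells was not tested.

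Within the astrocyte-like class Vcam1 varied by place. It was at 51.6, 70.1, 59.1 and 53.2 in the striatum of Young 1, Young 2, Aged 1 and Aged 2, and at 30.1, 46.4, 34.3 and 35.9 outside. The striatum was higher in 4 of 4 sections, by a mean of 21.9 ± 3.35 (SD, n = 4; exact paired permutation p = 0.125, the smallest that 4 sections can give), or 1.6-fold. A sub-cluster of 846 astrocyte-like cells led by Thbs4 and Gfap, the intermediate filament gene of reactive and white matter astrocytes, held 23.3, 31.3, 27.2 and 22.9. The other 6852 held 37.3, 53.4, 41.4 and 41.6, higher in 4 of 4 sections. Endothelial-like Vcam1 was at 14.6, 18.4, 18.6 and 13.3 in the striatum and 12.9, 15.3, 12.6 and 9.41 outside, also higher in the striatum in 4 of 4 sections. The areas were compared after the values were seen.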

How the data were processed

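The authors imaged 4 sections with a panel of 383 genes, used MERLIN to decode transcripts, and outlined the cells. The deposited values are raw counts of transcripts per gene and cell, with each cell's position and its volume, an imaging signal in µm³. A table of means by the authors was not used. The young sections' tables carry internal labels whose numbering departs from the titles, and the titles were followed. Cells with under 10 detected genes or under 50 µm³ were left out, as in the methods. Cells were clustered with Louvain (igraph 0.11.9, 15 principal components, resolution 0.08) without the 4 genes and the genes of the context lists. Clusters were named by their markers, and 2 vascular sub-clusters that matched astrocyte or microglia markers best were left out. No doublet caller was run, and the rule on mixed cells takes the place of the removal, in the methods, of cells that carry markers of more than one type.

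Counts were summed per class and section and tested with edgeR 4.0.16 (quasi-likelihood, R 4.3.3, TMM and filterByExpr except between classes, Benjamini-Hochberg, threshold 0.05), checked on simulated data. Alternatives were DESeq2 1.42.0, limma 3.58.1 on log2 of transcripts per 10000 plus 0.1, other scalings, filters, cell rules, splits and each section left out. Intervals are 1.96 SE and cover these sections only. Section depths were 36035355, 31172121, 18765491 and 29004185 transcripts in kept cells. Other tools were Python 3.11.15, numpy 2.4.6, scipy 1.17.1, pandas 2.3.3 and scikit-learn 1.9.0. The striatum was where at least 40% of the cells within 150 µm were medium spiny neuron-like.

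The 4 genes and all lists were chosen with earlier results of these data known. Named besides them were context genes past the threshold, up to 8 per comparison, the 3 panel genes most like each gene, and markers. Same-numbered young and aged sections did not deviate together (correlations of -0.009, -0.17 and -0.09 in the 3 classes), so numbers were not used as pairs.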

Additional observations from a re-analysis of the deposited data

Results flagged for a closer look

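Gfap was the 1 gene whose change with age differed between large and small vessels in a test of that difference, by 4.59 on the log2 scale (SE 0.91, edgeR adjusted p = 0.00020). Its large-vessel level was 0, 4.90, 91.5 and 23.2 per 10000 in Young 1, Young 2, Aged 1 and Aged 2, from 0, 1, 29 and 4 transcripts, and its small-vessel level was 20.6, 22.7, 40.8 and 25 per 10000. It was called in 5 of the 12 alternatives, and was named after its values were seen. Gfap is an astrocyte gene, and the part of neighbouring astrocytes in these levels was not tested.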

How the results depend on the processing

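The class differences of all 4 genes kept direction and call in each of 14 alternatives, and Vcam1 in large vessels in each of 17. Depth limits the rest: 2 sections per age, 104 large-vessel cells and 223 endothelial-like Icam1 transcripts leave changes within the stated intervals undetected. The rule on mixed cells and the rebuilt names were not compared with an annotation by the authors. The cause of the changes below was not tested.

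In the age comparisons, log2 values of Vwf in endothelial-like cells turned to -0.089 with classes by markers alone, -0.096 in the striatum alone, -0.052 with the Vwf-rich cluster added (chosen after seeing the data) and -0.26 per cell volume, from 0.08. Leaving out a section in turn gave -0.16 to 0.33 for Vwf, -0.60 to 0.11 for Cd34 and 0 to 1 genes called (Itm2a, without Young 1). In microglia-like cells, per cell volume, Vcam1 turned to -0.040 and Cd34 to -0.11, and with a section left out Vcam1 ranged from -0.020 to 0.81 and Cd34 from -0.29 to 0.66. Astrocyte-like Vcam1 ranged from -0.37 to 0.13. Genes called in astrocyte-like cells, 4 in the analysis as reported, were 0 by the stricter rule on mixed cells, by DESeq2 and per cell volume, 8 with classes by markers alone, 1 in the striatum alone and 0 to 4 with a section left out. In microglia-like cells, 2 as reported, they were 4 by the stricter rule, 6 with classes by markers alone, 4 in the striatum alone, 1 without TMM, without a filter, per cell volume and by limma, and 0 to 3 with a section left out. Differences of thinned shares between ages ranged from -1.35 to 1.24 percentage points for Vcam1 and from -13.9 to 1.12 for Cd34 with a section left out.

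With the replicate number as a block, 0 genes were called in endothelial-like, 0 in astrocyte-like and 0 in microglia-like cells, and the block changed no other call. Vcam1 was at -0.34 in endothelial-like and -0.10 in astrocyte-like cells in those fits, and Icam1 at -0.85 in endothelial-like cells. As the pairing correlation of astrocyte-like cells was -0.17, crossed numbers were tried after seeing the data, and 0 genes were called.

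Between large and small vessels, genes called were 150 with mixed cells kept and 46 by the stricter rule, from 78. Cd34 lost its call with large vessels taken within 25 µm (-0.25), by DESeq2 (-0.47), without TMM (-0.35), per cell volume (-0.26), by limma (-0.38) and without the section block (-0.61), turned to 0.080 in the split on arterial markers, and ranged from -0.84 to -0.44 with a section left out. Vwf lost its call in the split on arterial markers (0.27). Icam1 turned to 0.73 with the Vwf-rich cluster added, 0.92 within 25 µm, 0.10 away from fibroblast-like cells, 0.034 without TMM and 0.10 per cell volume, and ranged from -1.30 to 0.14 with a section left out.

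For the difference of the age change between vessel sizes, 0 genes were called with mixed cells kept, by the stricter rule, with the Vwf-rich cluster added, by DESeq2 and by limma, and 0 to 4 with a section left out. With mixed cells kept Vwf turned to 0.18 and Cd34 to -0.20, and with a section left out they ranged from -0.57 to 0.38 and from -0.073 to 0.75, and Vcam1 from 0.55 to 1.49. For astrocyte-like cells near against far from vessels, genes called were 57 with mixed cells kept, 0 by the stricter rule, 0 with near within 10 and far beyond 60 µm, 6 by DESeq2, 24 per cell volume and 8 to 14 with a section left out, from 14. Vcam1 there turned to -0.080 without a filter and -0.017 by limma, and ranged from -0.11 to 0.11 with a section left out.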
